A study of Mus musculus with 4 samples.

Results

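The genes described here are 57 transcription factors grouped as developmental factors of lineages other than the cerebral cortex, although some, such as Lhx5, also act in the forebrain. Their DNA methylation was compared between mice without Nsd1 in cortical excitatory neurons and controls. They were taken from a list of named genes, of which 42 belong to the Pax, Zic, Gata, Twist, Lhx, Nkx, Irx and Fox families or to the sine oculis homeobox family (Six2, Six3 and Six6) and 15 to none of these 9. All 57 were found among 21779 placed protein-coding genes. The list was chosen with earlier results of these data known, so shares and counts at its genes are descriptions, not independent evidence. A region was assigned to a member when it shared at least 1 bp with the RefSeq gene body widened by 10 kb on both sides. The submitters sequenced bisulfite-treated genomic DNA of somatosensory cortex at 2.5 months of age, from 2 libraries labelled Nsd1Nex-cKO (cKO) and 2 labelled Nsd1fl/+ (control). Nex, also called Neurod6, drives recombination in excitatory neurons of the cortex, so the other cells of the dissected tissue keep Nsd1 in the cKO as well, and the control genotype carries 1 floxed allele. The labels give neither the sex of the mice nor whether the libraries came from separate animals.

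The protein NSD1 methylates histone H3 at lysine 36, and the resulting mark can be bound by the DNA methyltransferase DNMT3A. In differentiated cells, genes for regulators of foreign lineages are usually silent, lie in CpG-rich domains covered by Polycomb proteins, and carry little CG methylation at their starts. Adult neurons also carry methylation outside CG, in the contexts CHG and CHH (H stands for A, C or T), which DNMT3A deposits after birth.

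The authors' deposited table lists 101350 regions of differential methylation on mm10 and gives 1 mean for cKO and 1 for control in each. It gives no value per library and no coverage, so the depth is unknown, and no spread between mice could be set beside any difference and no test over samples was possible. All counts below describe the called regions, and a region lower in cKO is named a loss and one higher in cKO a gain, with no test implied. The tissue is bulk, so fewer methylated cells and less methylation in each cell cannot be told apart, and the identity of the tissue could not be checked from called regions. Mitochondrial DNA held 17 listed regions, and cKO had the lower mean in each. Its 4 CHH regions (3967 cytosines) went from a weighted mean of 6.52% to 0.510%, the median of their differences being -5.87 points. Its 10 CG regions, with control means of 4.28% to 16.8%, differed by -3.67 to -13.2 points. Mitochondrial DNA is usually taken to carry little methylation, so its apparent level can also reflect unmethylated cytosines that bisulfite did not convert. Whether conversion differed between the groups was not tested, and called regions do not allow it.

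RefSeq promoter windows on GRCm38.p6, from 250 bp before to 50 bp after a start, were at hand for 44 members with 52 windows, and 0 of the 52 overlapped a region of any context or direction. Over 21263 windows of protein-coding genes, 1.68% overlapped one, so a count of 0 in 52 lies near the background and does not set the members apart. The members' windows were richer in CpG, with a median of 21 CpGs in 300 bases against 13 over all windows, and 42 of the 52 held at least 10 CpGs (80.8%, against 56.8% of all windows). The 4 windows below show the CpG content of starts with a listed region nearby: the nearest pair to a listed region among windows with fewer than 10 CpGs, and the nearest pair among those with at least 10, with each CpG in capitals and the sequence given 5′ to 3′ along the gene. Runx1, a regulator of blood stem cells, has 2 CpGs in this window (chr16:92826025-92826324, minus strand) and a CG region 119 bp away (79.6% in control, 55.5% in cKO). Pax8, a regulator of thyroid and kidney development, has 7 CpGs (chr2:24475550-24475849, minus strand) and a CHH region 210 bp away (7.48% and 1.90%). Pax5, which commits cells to the B lymphocyte lineage, has 23 CpGs (chr4:44710645-44710944, minus strand) and a CHH region 662 bp away (8.83% and 2.60%). Twist2, a basic helix-loop-helix factor of mesenchyme and dermis, has 25 CpGs (chr1:91801211-91801510, plus strand) and a CG region 689 bp away (69.9% and 33.2%).
Runx1: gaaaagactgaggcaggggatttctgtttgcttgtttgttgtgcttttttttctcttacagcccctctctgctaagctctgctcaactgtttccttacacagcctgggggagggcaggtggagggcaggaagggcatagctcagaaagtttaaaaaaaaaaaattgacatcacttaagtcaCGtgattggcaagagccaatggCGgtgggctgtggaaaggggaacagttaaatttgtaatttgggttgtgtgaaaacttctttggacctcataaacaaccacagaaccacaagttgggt
Pax8: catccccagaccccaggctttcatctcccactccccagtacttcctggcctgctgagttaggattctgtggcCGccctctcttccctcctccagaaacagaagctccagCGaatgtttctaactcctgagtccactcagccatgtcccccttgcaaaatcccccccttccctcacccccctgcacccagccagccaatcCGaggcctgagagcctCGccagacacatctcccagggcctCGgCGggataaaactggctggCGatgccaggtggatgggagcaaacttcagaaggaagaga
Pax5: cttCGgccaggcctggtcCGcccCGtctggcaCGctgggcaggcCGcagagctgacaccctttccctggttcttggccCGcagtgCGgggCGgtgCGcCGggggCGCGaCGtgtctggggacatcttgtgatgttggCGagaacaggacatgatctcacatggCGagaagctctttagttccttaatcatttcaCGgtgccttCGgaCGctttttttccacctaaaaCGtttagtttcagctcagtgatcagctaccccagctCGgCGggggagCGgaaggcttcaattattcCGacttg
Twist2: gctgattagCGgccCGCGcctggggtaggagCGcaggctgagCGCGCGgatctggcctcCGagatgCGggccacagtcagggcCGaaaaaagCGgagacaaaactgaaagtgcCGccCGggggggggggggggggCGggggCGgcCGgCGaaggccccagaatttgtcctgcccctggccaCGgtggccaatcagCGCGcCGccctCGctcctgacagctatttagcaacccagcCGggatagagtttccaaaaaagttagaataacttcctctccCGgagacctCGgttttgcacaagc

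Nearly every region assigned to the members was less methylated in cKO. The authors' deposited table placed regions at 46 of the 57 members, 339 different ones in all. These were 110 CG regions, all lower in cKO, 225 CHH regions, of which 220 were lower and 5 higher, and 4 CHG regions, all lower. Over all regions of the table, 94.4% of CG regions and 84% of CHH regions were lower. Among regions at all protein-coding genes widened in the same way, 88.6% of CG and 67.3% of CHH regions were lower. A CG region lower in cKO was present at 28 of 57 members (49.1%), where 33.4% of all protein-coding genes widened in the same way held one. A CG region higher in cKO was present at 0 members, against 9.11% of all genes and 3.14% of genes under 10 kb, which 31 members are. A CHH region lower in cKO was present at 43 members (75.4%), against 28.8% of all genes, and a CHH region higher in cKO at 4 members (7.02%), against 18% of all genes. A CHG region lower in cKO was found at 3 members, against 0.872% of all genes. Both CG and CHH losses were listed at 25 members, CHH losses alone at 18 and CG losses alone at 3 (Lhx1, Foxa1 and Runx2). This split was not counted over all genes, nor was the share with a region of any kind. Neither count therefore sets the members apart. The 11 members with no listed region were Zic2, Six3, Twist1, Nkx2-1, Nkx2-5, Foxc2, Isl1, Hand2, Barx1, Pitx1 and Otp, for which the table says nothing about their level.

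**Figure D1:**
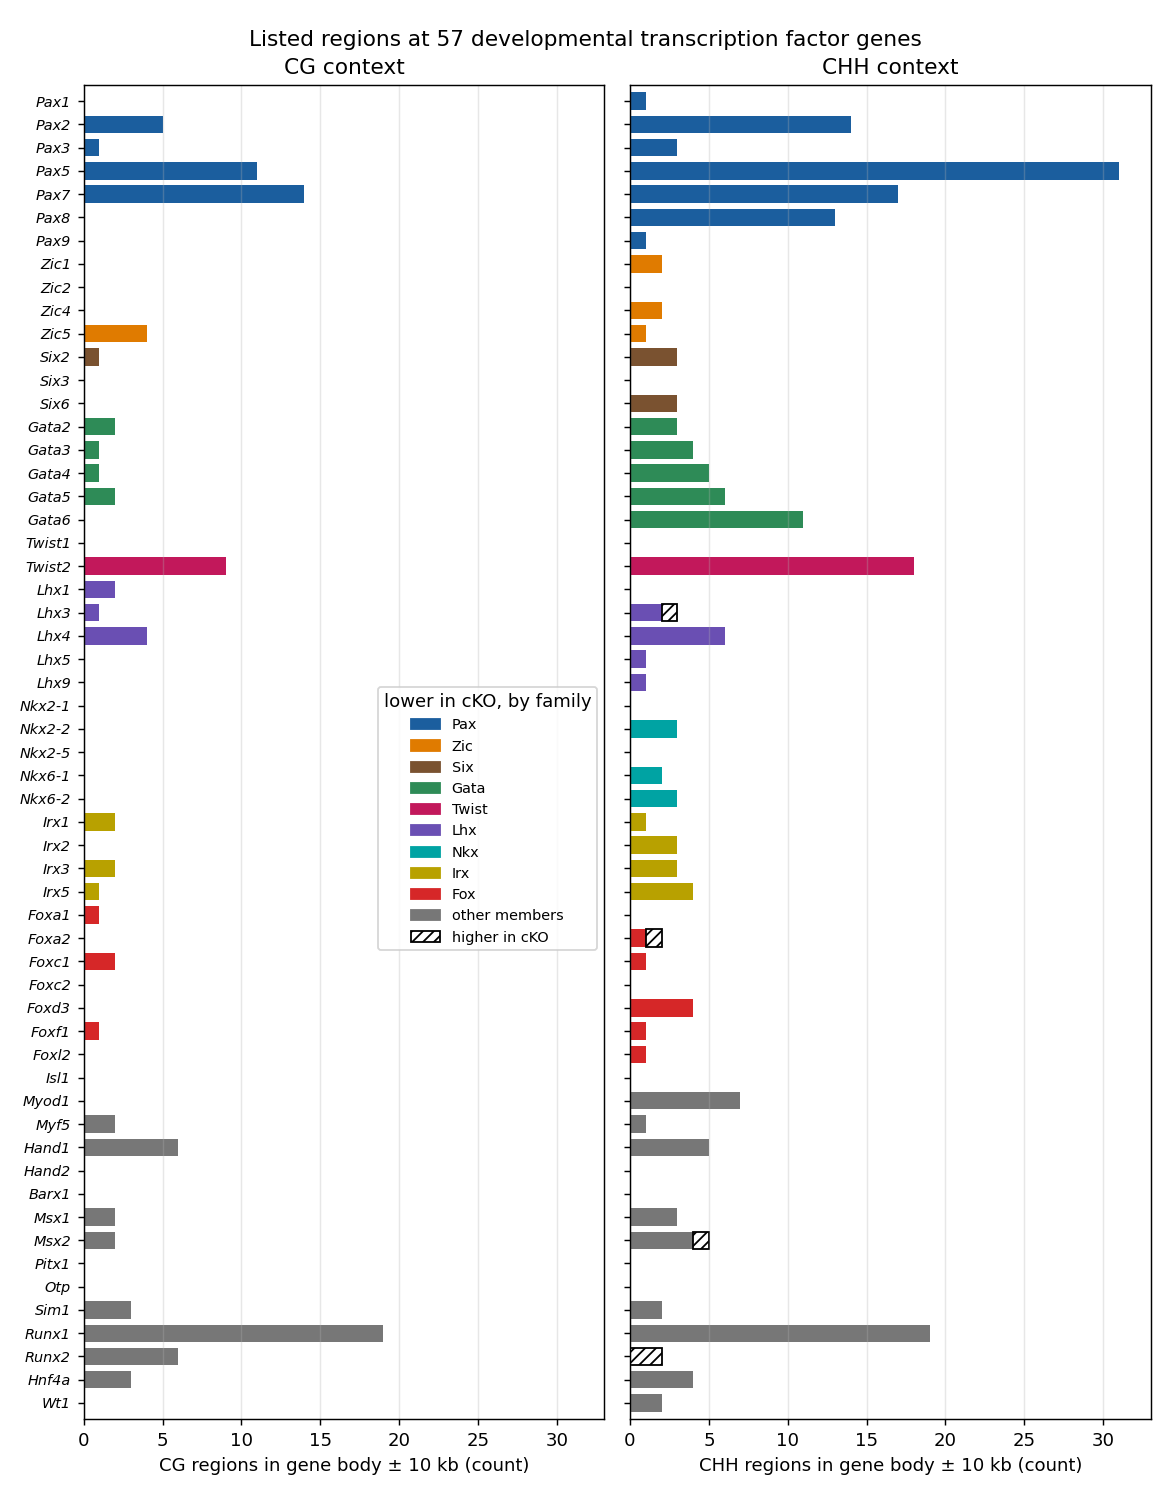
Number of CG regions (left) and CHH regions (right) in the gene body widened by 10 kb, for each of the 57 members in family order, with filled bars for regions lower in cKO and hatched bars for regions higher in cKO. Pax5 has the longest CHH bar with 31 and Runx1 the longest CG bar with 19, and the 5 hatched regions lie at Lhx3, Foxa2, Msx2 and Runx2.

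The flanks held many of these regions. Inside gene bodies alone, 15 of the 57 members held a CG region lower in cKO, where 18.6% of all protein-coding genes did. A CHH region lower in cKO was held there by 22 of the 57, where 15.1% of all protein-coding genes did. Of the 110 CG losses, 74 lay in members' bodies and 36 in flanks, or 3.99 and 3.24 per 100 kb. Of the 220 CHH losses 129 lay in bodies and 91 in flanks, or 6.95 and 8.20 per 100 kb. Over the whole table, between the first and the last region of each chromosome, there were 1.68 CG and 1.70 CHH losses per 100 kb. That span includes sequence far from genes, and the density in the widened windows of all protein-coding genes was not counted. Another protein-coding gene that is no member overlapped 2 of the CG losses and 1 of the CHH losses. Just inside the edge of the widened gene, at 9 to 10 kb from the body, lay 3 CG regions with medians of 49.7% (control) and 17.5% (cKO), and 9 CHH regions with medians of 5.80% and 0.993%. Just outside, at 10 to 11 kb, lay 6 CG regions with medians of 80.3% and 37.3%, and 15 CHH regions, 14 of them lower, with medians of 5.31% and 0.958%.

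The members are short genes, with a median length of 9.49 kb against 17.2 kb for all protein-coding genes, and a longer window can hold more regions. Among members under 10 kb, 13 of 31 (41.9%) held a CG loss and 21 (67.7%) a CHH loss, where 19.6% and 20.6% of all genes of that length did. Among members of 10 to 50 kb, 5 of 15 (33.3%) held a CG loss, close to the 33.2% of all genes, and 12 (80.0%) a CHH loss, against 27.9%. Among members over 50 kb, 10 of 11 (90.9%) held a CG loss and 10 a CHH loss, against 55.6% and 43.6%. A CG gain was held by 0 members in each of these bins, against 3.14%, 7.39% and 21.7% of all genes, from short to long. The order of the shares for CHH gains differed by length. A CHH gain was held by 3 of the 31 members under 10 kb (9.68%, against 3.64% of all genes of that length), by 0 of the 15 of 10 to 50 kb (against 14.98%), and by 1 of the 11 over 50 kb, Runx2 (9.09%, against 46.2%). The lower share of members overall was therefore not seen among those under 10 kb, but this rests on 3 genes, Lhx3, Foxa2 and Msx2. The gain at Lhx3 overlaps the neighbouring Qsox2, and those at Foxa2 and Msx2 are the smallest. Across the 57 members the number of regions and the window length had a Spearman rho of 0.45, given as a description, since members share libraries and some share a window.

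**Figure D2:**
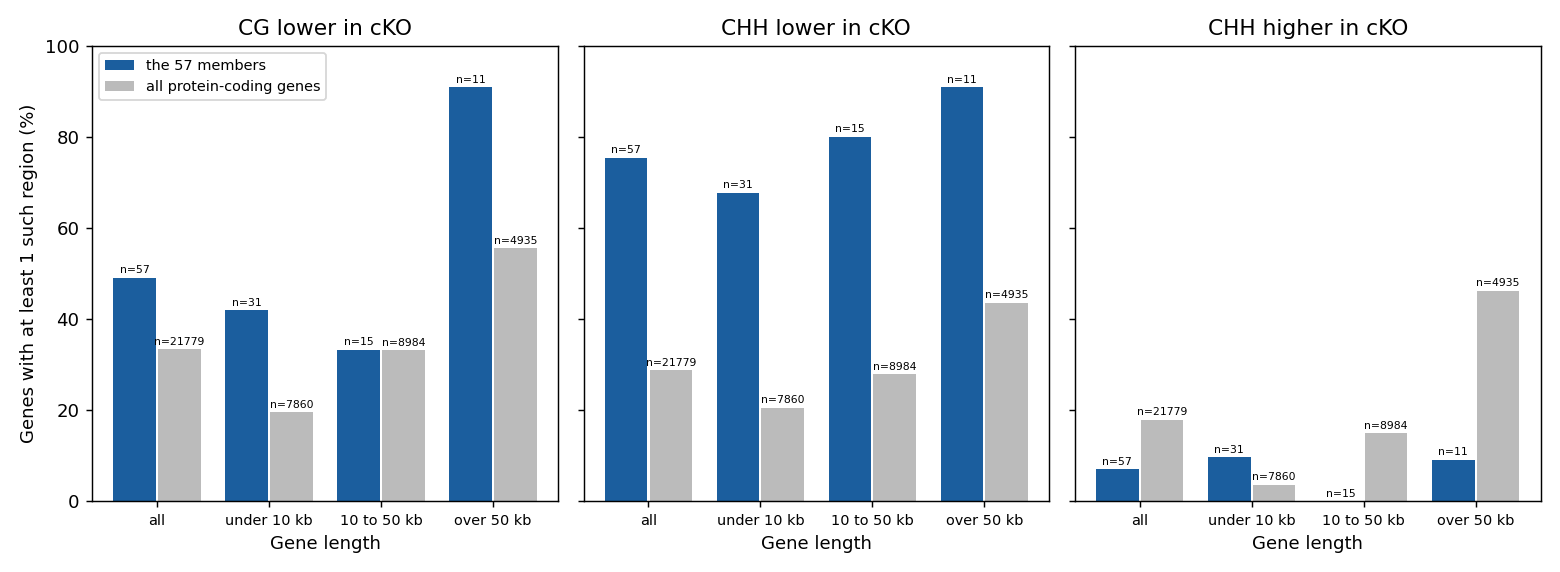
Percent of genes with at least 1 CG region lower in cKO (left), CHH region lower in cKO (middle) and CHH region higher in cKO (right), for the 57 members (blue) and all protein-coding genes (grey), overall and in 3 bins of gene length, with the number of genes above each bar. The blue bars for CHH losses stand at 67.7% or more in every bin and the grey ones at 43.6% or less.

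CG losses started from a wide range of levels. Over the 110 CG regions in the authors' deposited table, control means ran from 30.9% to 93.1% (median 72.3%), and cKO means from 9.37% to 69.4% (median 37.8%). The median difference was -30.2 points (quartiles -36.6 and -26.3), beside -31.2 points over the 44497 CG losses of the whole table (quartiles -35.8 and -26.7). In each of the 8 families with a CG region the median difference lay between -32.2 points (Pax) and -27.1 points (Gata). The largest difference was in the gene Pax7, a factor of muscle stem cells and neural crest, from 63.6% to 10.7% over 6 CpGs (chromosome 4, 139758345 to 139758453). The smallest was in Hand1, a factor of heart and extraembryonic tissue, from 30.9% to 15.3% over 13 CpGs (chromosome 11, 57831412 to 57831471). In 13 of the 110 regions (11.8%), at 8 members, the control was under 50%, where 5.89% of all CG losses were. The regions had a median of 7.98 CpGs per 100 bp, against 7.14 over all CG losses.

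CHH losses at the members were close in level to those of the whole table. Their control means ran from 2.54% to 15.9% with a median of 5.63%, and their cKO means from 0.260% to 6.86% with a median of 1.05%. The median difference was -4.59 points (quartiles -5.58 and -3.88), beside -4.43 points over all 45012 CHH losses (quartiles -5.32 and -3.76). The mitochondrial CHH regions above differed by amounts of the same size, and the part of a difference in bisulfite conversion in the members' CHH losses was not tested. Of the 220 losses, 44 (20%, at 21 members) exceeded the mitochondrial median of 5.87 points, as did 16.1% of all CHH losses, and 8.98% of all protein-coding genes held a loss of that size.

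**Figure D3:**
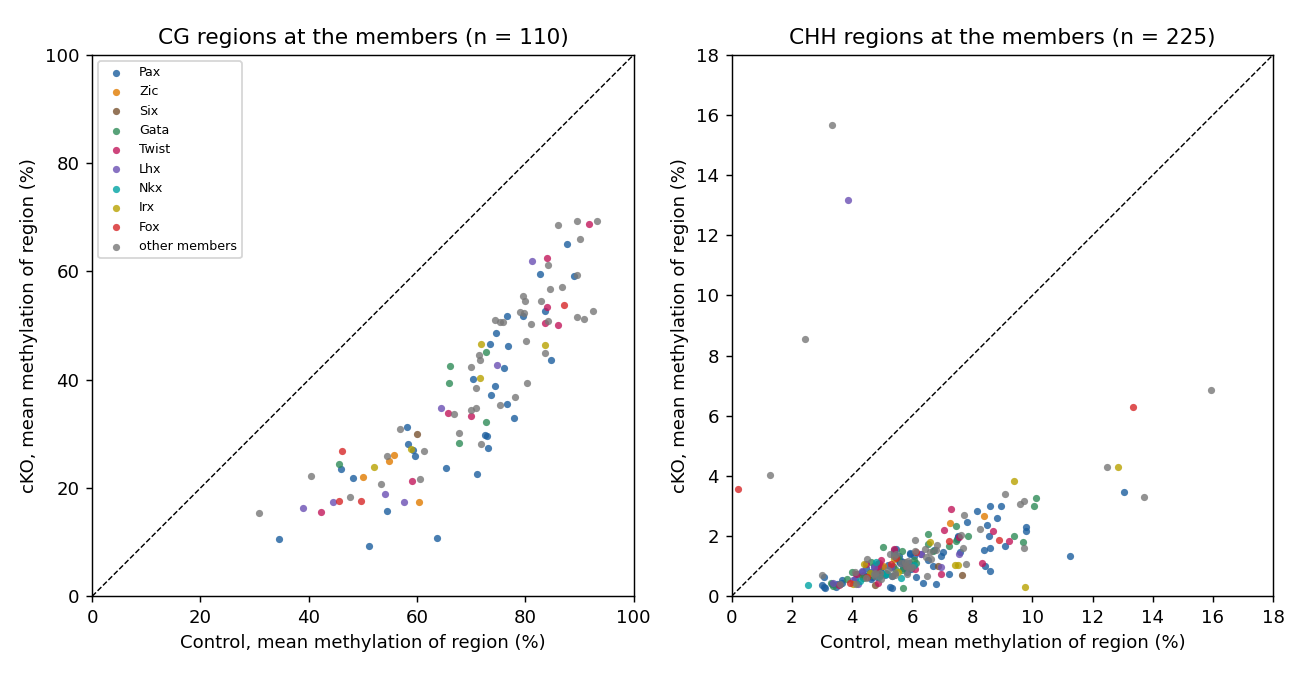
Mean methylation of each listed region at the members in cKO (vertical, %) against control (horizontal, %), for 110 CG regions (left) and 225 CHH regions (right), coloured by family, with a dashed line where both are equal. All CG points lie below the line, and 5 CHH points lie above it.

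The Pax genes encode paired-domain factors, and all 7 members carried losses. In the authors' deposited table this family had 31 CG and 80 CHH losses, or 4.43 and 11.4 per 100 kb, and 0 gains. Its 2 CHG losses both lay in Pax5 (5.12% to 0.124% and 8.21% to 1.16%). Pax5 held 11 CG losses, with control means from 59.2% to 89.0% and cKO means from 22.7% to 65.0%. Its 31 CHH losses ran from 3.60% to 11.3% in control (median 5.89%) and had a median of 1.13% in cKO, with a lowest value of 0.400%. The strongest CHH region at any member by area statistic, a score in the authors' deposited table, covered 787 bp and 280 cytosines of Pax5 (chromosome 4, 44709196 to 44709982), at 8.83% in control and 2.60% in cKO. Its centre lay 1.1 kb after the start whose promoter is printed above.

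Pax7 held 14 CG losses, 13 of them in the gene body, and 17 CHH losses. Its control means in CG ran from 34.6% to 79.5% and its cKO means from 9.37% to 51.7%. Of these, 3 lay within 0.993 kb (chromosome 4, 139758345 to 139759337) and went from 51.1% to 72.6% in control to between 9.37% and 29.7% in cKO, over 34 CpGs. A further 4 lay within 1.99 kb (139807973 to 139809965), with 58.1% to 73.6% in control and 23.6% to 37.2% in cKO. Pax2, a regulator of kidney, eye and midbrain, held the strongest CG region of the family in the authors' deposited table (chromosome 19, 44817190 to 44817767, 34 CpGs), at 84.8% in control and 43.6% in cKO, and 5 CG and 14 CHH losses in all. Its 5 CG losses all lay in the body, 41.1 to 68.1 kb from the nearest start. Pax3, a neural crest and muscle progenitor factor, held 1 CG loss (76.1% to 42.2%) and 3 CHH losses. Pax8 held 13 CHH losses, with control means from 3.09% to 13.1%, and 0 CG regions. Pax1 and Pax9, both factors of the sclerotome that forms the vertebrae, held 1 CHH loss each, in the flank (4.94% to 0.880% and 6.15% to 0.634%), and the one of Pax9 overlaps the neighbouring Slc25a21.

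Members of the Zic and sine oculis families had few regions, in small windows of 92.5 and 103 kb in all. Zic had 4.33 CG and 3.24 CHH losses per 100 kb, and the sine oculis family 0.970 and 5.82. Over all members there were 3.71 and 7.42 per 100 kb. Zic factors are zinc finger proteins of the dorsal neural tube and cerebellum. Of the 4 CG losses of Zic5, 3 lay within a stretch of 0.782 kb of the gene body (chromosome 14, 122462216 to 122462997) and held 49 CpGs, with control means from 50.1% to 60.3% and cKO means from 17.4% to 26.0%. Zic1 and Zic4 lie next to each other, so both were assigned the same 2 CHH losses, from 8.39% to 2.66% and from 5.02% to 1.02%, and 0 CG regions. Sine oculis factors act in eye, kidney and craniofacial development. In the authors' deposited table Six2, which maintains nephron progenitors, held 1 CG loss in its downstream flank (60.0% to 29.9%, chromosome 17, 85661678 to 85661777) and 3 CHH losses, the strongest over 204 cytosines of its body (5.37% to 0.991%). Six6, an eye field factor, held 3 CHH losses, all in its flanks (control means 4.34% to 6.87%, cKO means 0.358% to 0.993%).

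The Gata factors, zinc finger regulators of blood, T cells, heart and endoderm, all carried CHH losses, 29 in the family or 11.1 per 100 kb, and 6 CG losses at 4 of the 5. Gata2, a blood progenitor factor, held a CG loss 2.94 kb before its start (chromosome 6, 88190868 to 88191029, 26 CpGs), at 45.7% in control and 24.5% in cKO. In Gata3, which specifies T helper cells, a CG region in the body went from 67.8% to 28.2%. The 4 CHH losses of Gata3 all lay in its flank, with control means from 3.37% to 10.1%. Gata4, a heart and endoderm factor, held 1 CG loss in its flank (72.7% to 45.1%) and 5 CHH losses. Gata5, of heart and endoderm too, held 2 CG losses in its flanks (66.1% to 42.6% and 72.7% to 32.1%) and 6 CHH losses, one of them over 139 cytosines from 7.44% to 2.34%. Gata6, which acts in endoderm and heart, had the most CHH losses of the family in the authors' deposited table with 11, and 0 CG regions. Those 11 had control means from 4.63% to 10.1% (median 6.14%) and a cKO median of 1.65% with a lowest value of 0.291%, and 9 of them lay in the gene body.

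The 2 Twist genes differed in what was listed. Twist1, a factor of cranial mesenchyme and limb, held 0 regions, and Twist2 held 9 CG and 18 CHH losses, so the family's 10.1 CG and 20.3 CHH losses per 100 kb come from 1 gene. Among the 5 members with the most regions, Twist2 had the highest density, with 40.6 regions per 100 kb over a window of 66.6 kb. Hand1, which is not among those 5, had 46.9 per 100 kb over a window of 23.4 kb. In the authors' deposited table its strongest CG region (chromosome 1, 91802487 to 91803060, 55 CpGs) was the strongest at any member by area statistic. It was centred 1.31 kb after the start whose promoter is printed above, and went from 42.3% to 15.5%. A region 1.02 kb before the start went from 69.9% to 33.2%, so the CpG-rich window lies between both. Another covered 856 bp of the body with 40 CpGs, at 86.1% in control and 50.1% in cKO. Its 18 CHH losses ran from 3.58% to 9.21% in control (median 5.59%) and from 0.375% to 2.89% in cKO (median 1.08%), the strongest over 208 cytosines from 8.70% to 2.16%.

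The Lhx genes encode LIM homeodomain factors, and all 5 members carried a region, 7 CG losses and 10 CHH losses in all, with 1 CHH gain. Lhx4, a pituitary and motor neuron factor, held 4 CG losses in its body (control means 44.5% to 64.5%, cKO means 17.4% to 34.7%), 6 CHH losses and 1 CHG loss (7.90% to 0.892%). Lhx1, which acts in kidney and head formation, held a pair of CG losses upstream of its start (81.2% to 62.0% and 74.7% to 42.7%) and 0 CHH regions. Lhx3, a partner of Lhx4 in pituitary and motor neurons, held 1 CG loss in its downstream flank (38.9% to 16.3%) and 2 CHH losses. Lhx5, a forebrain and cerebellar factor, and Lhx9, a gonad and limb factor, held 1 CHH loss each in the authors' deposited table (4.34% to 0.849% and 6.98% to 0.979%).

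The Nkx genes encode homeodomain factors of ventral neural tube, pancreas, heart and lung. They were the family with 0 CG regions. Nkx2-2, a factor of pancreas and ventral spinal cord, held 3 CHH losses, Nkx6-1, of beta cells and motor neuron progenitors, 2, and Nkx6-2, of motor neuron and oligodendrocyte lineages, 3. All 8 lay in the flanks, at control medians per gene of 4.80%, 4.09% and 5.15% and cKO medians of 0.656%, 0.483% and 0.735% in the authors' deposited table.

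The Irx genes, Iroquois homeodomain factors of heart, limb and neural patterning, all carried CHH losses, and in each case in the flanks in the authors' deposited table. Irx3 held a pair of CG losses downstream of its end (83.6% to 46.4% and 58.9% to 27.3%) beside a CHH loss over 125 cytosines (7.53% to 1.05%, chromosome 8, 91793609 to 91793947) that overlapped the first. Irx1 held 2 CG losses (71.9% to 46.6% and 71.6% to 40.4%) and 1 CHH loss. Irx5 held 1 CG loss (52.1% to 23.9%) and 4 CHH losses with control means from 7.43% to 12.9%. Irx2 held 3 CHH losses (control means 4.39% to 5.54%) and 0 CG regions. The family had 4.90 CG and 10.8 CHH losses per 100 kb.

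The 7 Fox members, forkhead factors, carried 4 CG and 8 CHH losses and 1 CHH gain, or 2.40 and 4.79 losses per 100 kb. Foxc1, a factor of mesoderm and vessels, held a CG loss over 36 CpGs in its downstream flank (chromosome 13, 31811645 to 31811841), at 46.1% in control and 26.8% in cKO, and another in its upstream flank (49.7% to 17.5%). Its CHH loss was at 13.3% in control and 6.29% in cKO, both the highest of the family. Foxa1, a pioneer factor of endoderm, held 1 CG loss (45.5% to 17.5%). In Foxf1, a factor of lung and gut mesenchyme, a CG region of 4 CpGs (87.1% to 53.7%) and a CHH region (6.15% to 1.46%) lay in the body. Foxd3, a neural crest factor, held 4 CHH losses in its flanks (control means 3.95% to 8.88%), Foxl2, of the ovary, 1 (7.22% to 1.84%), and Foxa2, of endoderm and floor plate, 1 (4.51% to 0.629%), all in the authors' deposited table.

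Among muscle and mesoderm factors of the basic helix-loop-helix type, Hand1 stood at 6 CG and 5 CHH losses although the gene spans 3.44 kb. Of its CG losses in the authors' deposited table, 4 lay within 1.48 kb of its body (chromosome 11, 57829988 to 57831471), over 48 CpGs, at 30.9% to 80.1% in control and 15.3% to 47.1% in cKO. A CHH loss in the same stretch went from 9.71% to 1.61% over 99 cytosines. Its relative Hand2 held 0 regions. Myod1, the myogenic determination factor, held 7 CHH losses in its flanks (control means 3.61% to 7.72%, cKO means 0.391% to 2.69%) and 0 CG regions. Myf5, which acts in the same lineage, held 2 CG losses upstream, of which the one from 74.5% to 51.0% overlapped the neighbouring Myf6, and 1 CHH loss. Sim1, a hypothalamic factor, held 3 CG losses (control means 53.3% to 89.5%, cKO means 20.7% to 51.5%) and 2 CHH losses, one over 213 cytosines from 4.96% to 0.565%.

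Runx1 and Runx2 encode runt-domain factors, and their listed CHH regions differed in direction. Runx1 held 19 CG losses in the authors' deposited table, the most of any member, with control means from 54.4% to 93.1% and cKO means from 26.0% to 69.4%. Its 19 CHH losses ran from 4.11% to 13.7% in control (median 6.47%) and from 0.686% to 4.29% in cKO (median 1.41%). Runx2, the determinant of bone-forming cells, held 6 CG losses (control means 71.9% to 90.1%, cKO means 28.2% to 65.9%), 0 CHH losses and 2 CHH gains. Its CG loss nearest to a start, 0.480 kb after it (chromosome 17, 44814072 to 44814222), went from 71.9% to 28.2% over 10 CpGs and also overlaps Supt3. Of all protein-coding genes over 50 kb, 43.6% held a CHH loss and 46.2% a CHH gain. The presence of either therefore does not set these 2 genes apart.

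The remaining members with regions were of several other types. Msx1 and Msx2, homeobox factors of limb and craniofacial tissue, held 2 CG losses each, all in the flanks, from 66.9% to 33.7% and 67.7% to 30.1% in Msx1 and from 60.6% to 21.7% and 82.8% to 54.4% in Msx2. They held 3 and 4 CHH losses, and Msx2 a CHG loss from 10.7% to 1.66%. Hnf4a, a liver factor, held 3 CG losses (control means 79.9% to 85.9%, cKO means 54.5% to 68.5%) and 4 CHH losses. Wt1, of kidney and gonad, held 2 CHH losses, one of which had the highest control level of any CHH loss at a member in the authors' deposited table, 15.9%, with 6.86% in cKO.

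The 5 gains were all in CHH. In the authors' deposited table the largest difference was in the body of Runx2 (chromosome 17, 44686666 to 44686854, 57 cytosines), from 3.33% in control to 15.7% in cKO, and the other one of that gene lay in its downstream flank (2.44% to 8.54%). The gain assigned to Lhx3 (3.86% to 13.2%) lay upstream of its start and inside the neighbouring Qsox2. Those in the bodies of Foxa2 (0.208% to 3.56%, 34 cytosines) and Msx2 (1.28% to 4.03%, 22 cytosines) were the smallest. Without regions that overlap another protein-coding gene, a filter chosen after the values were seen, 3 members kept a gain.

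Most losses at members with a tabled start were centred over 5 kb from the nearest one. For members with a tabled start, 2 of 98 pairs of a member and a CG loss (2.04%), both named above in Runx1 and Runx2, were centred within 1 kb of the nearest start, 12 at 1 to 5 kb and 84 at over 5 kb. Over the 17132 such pairs of all protein-coding genes, 6.11% were within 1 kb. For CHH losses, 1 of 182 pairs (0.549%), at Pax8, was within 1 kb, 25 were at 1 to 5 kb and 156 at over 5 kb, and over the 14786 pairs of all genes 3.37% were within 1 kb. Shares at 1 to 5 kb and at over 5 kb were not counted over all genes. Longer windows hold more sequence far from a start, so these 2 bins do not set the members apart. Starts that the table does not list were not used here.

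**Figure D4:**
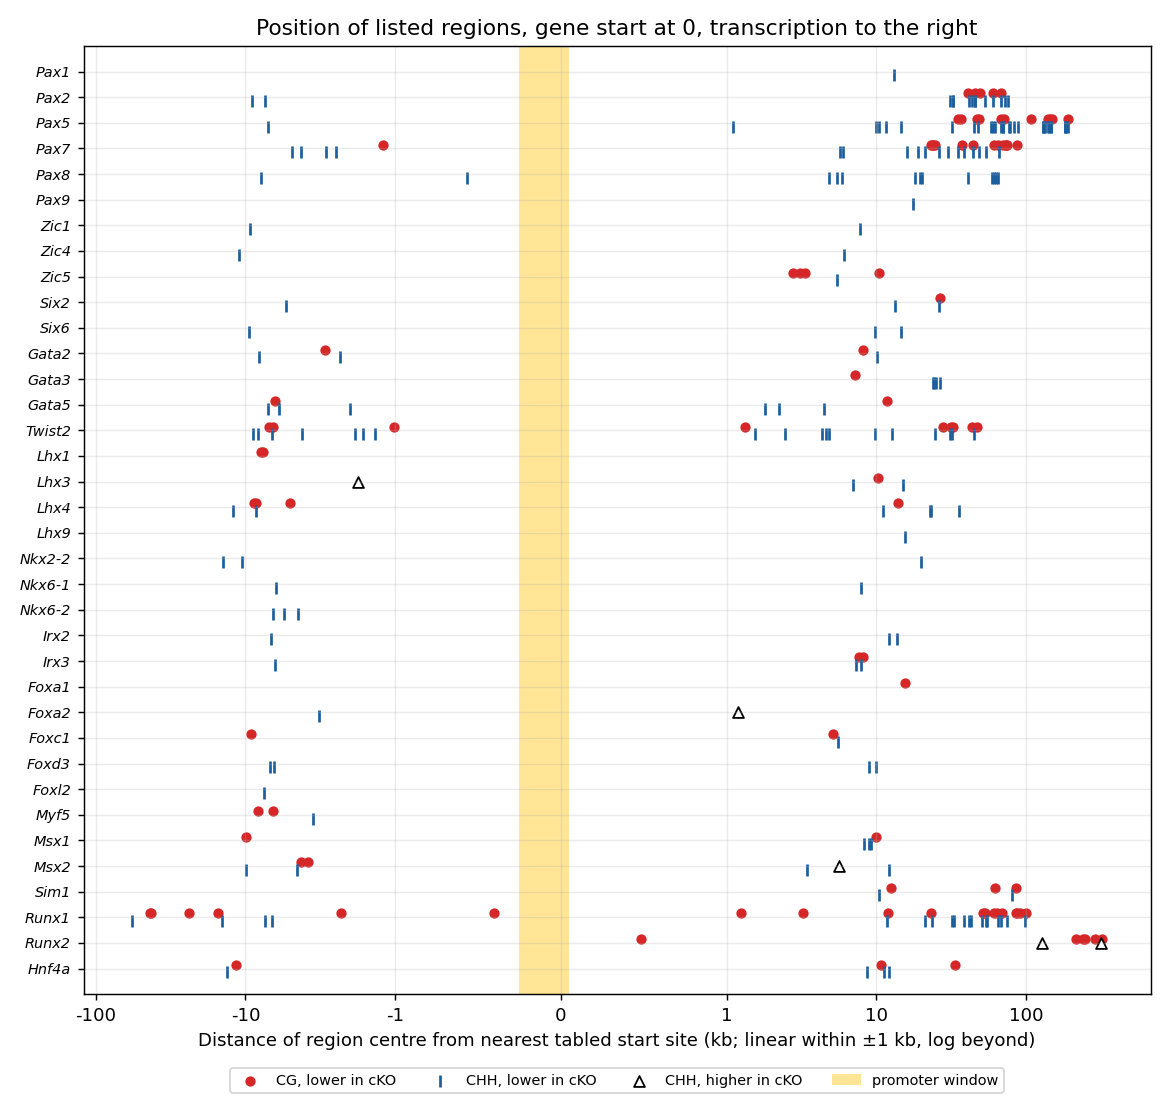
Distance in kb from the nearest tabled start to the centre of each listed region (horizontal, linear within 1 kb of the start and logarithmic beyond, transcription to the right), for the members with a tabled start and at least 1 region; red points are CG losses, blue ticks CHH losses and open triangles CHH gains. The yellow band, the promoter window from 250 bp before to 50 bp after a start, holds 0 regions.

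Some CG and CHH losses at the members lay near each other. A CHH loss lay within 1 kb of 47 of the 110 CG losses (42.7%), against 9793 of the 44497 CG losses in the authors' deposited table. Seen from the other side, a CG loss lay within 1 kb of 48 of the 220 CHH losses (21.8%), against 21.4% of all CHH losses. The members' windows hold more CHH than CG losses per 100 kb, as given above, and the part of this in the first share was not tested. The 5 members with the most regions, Pax5 with 44, Runx1 with 38, Pax7 with 31, Twist2 with 27 and Pax2 with 19, held 159 of the 339 regions (46.9%).

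Other genes of the same 9 families carried gains in CG, which the members did not. Of the 58 relatives, 30 (51.7%) held a CG loss, 35 (60.3%) a CHH loss, 8 (13.8%) a CG gain and 7 (12.1%) a CHH gain. Over all protein-coding genes these shares were 33.4%, 28.8%, 9.11% and 18%, in the same order. The relatives had 91 CG losses and 18 CG gains. Of the 18 CG gains, 17 were at Fox genes, 10 of them at Foxp1, a forkhead factor that cortical neurons express. Foxp1 spans 597 kb, where the Fox members have a median length of 3.77 kb and the other Fox genes one of 6.64 kb. A CG gain was listed at 3.14% of all genes under 10 kb and at 21.7% of those over 50 kb. The 37 other Fox genes had 44 CHH losses and 18 CHH gains. Of 17 T-box genes, another family of developmental factors, 9 (52.9%) held a CG loss, 12 (70.6%) a CHH loss, 0 a CG gain and 3 (17.6%) a CHH gain, with a median CG difference of -32.4 points in the losses. These are counts of genes in the same table and were not tested against each other.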

How the data were processed

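Bisulfite sequencing covered 2 cKO and 2 control libraries of somatosensory cortex. CASAVA, Bowtie2 and mm10 appear in the submitters' processing notes, without versions or roles. Which caller found the regions, with which thresholds and use of replicates, is not given in the sources used here. Per the file headers, the authors give each region a mean methylation fraction per group, printed here as a percent, their difference (cKO minus control), an area statistic (a score, with no definition in the sources used here), the number of cytosines and the length. No library values or coverage come with them, so depth and precision are unknown and no spread or test over samples was possible.

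RefSeq gene bodies were those of GRCm38.p6, which is the mm10 assembly. Entries within the first 3 Mb of any chromosome but Y were dropped, as belonging to unplaced scaffolds. Of the members 57 of 57 matched by symbol, and 44 had a promoter sequence. A region in several member windows counted once among regions and once for each member. Overlap counting was tested on simulated data. Python 3.11.15 with pandas 2.3.3, numpy 2.4.6 and scipy 1.17.1 was used.

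The members and lists were chosen with earlier results of these data known. Values were named by rule: up to 3 members per family with the largest area statistics in CG and CHH, the 5 members with the most regions, every gain, and the extremes in CG. The other members' regions, the dense stretches of CG losses and the promoters shown were added after their values were seen. The rule foresaw printing sequences of CG regions, and RefSeq promoters took their place. Alternatives covered the flank, the overlap, and filters on area statistic, cytosines and difference. There were 0 further value columns.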

Additional observations from a re-analysis of the deposited data

How the results depend on the processing

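No paired analysis was possible because the authors' table gives group means, and its columns carry no replicate numbers; for the same reason no library could be left out. Under 10 alternative settings, 3 of them chosen after seeing the data, 7 results gave 70 values, of which 54 stayed within 1.5 times (counts) or the 95% interval over regions (median), 16 moved and 0 reversed. That interval takes the called regions as separate units although they share libraries, so it does not measure spread between mice. The number of members with a CG gain was 0 under each of the 10 settings. Only the 20 kb flank could have added such a member, since the other settings take regions or members away. A count cannot change sign, and the filter on CHH differences cannot move the CG results. With gene bodies alone, 15 members had a CG loss, 22 a CHH loss, and CHH losses numbered 129. With area statistics above the median of their context, there were 61 CG and 129 CHH losses, and 2 members had a CHH gain. With at least 10 cytosines, there were 61 CG losses. With differences of at least 30 points in CG and 5 in CHH, there were 58 CG and 83 CHH losses, 2 members with a CHH gain, and a median CG difference of -36.2 points, which follows from the filter itself. With CHH differences above the mitochondrial median, 21 members had a CHH loss (44 regions) and 2 a CHH gain. Without the 5 members with the most regions, 52 CG and 121 CHH losses were left, at 23 and 38 members. The other settings (flanks of 5 and 20 kb, more of the region inside than outside, no other protein-coding gene) moved none of the 7 results past these limits. Depth is unknown, so a member without a region may have been too thinly covered to be called.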
